A study of Mus musculus with 23 samples.

Results

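High-fat diet (HFD) was compared with chow in livers of mice that all received REGN1193, an antibody against the glucagon receptor (GCGR) that blocks its signal. The comparison uses 12 of the 23 libraries of the series, chosen by the antibody and diet in the sample titles: 6 livers on chow (libraries 6 to 11) and 6 on HFD (libraries 18 to 23). Libraries are named by the sample number in the title. The mice were C57BL/6J males kept on their diet over 4 months, and REGN1193 was given at 10 mg/kg for a period of 3 weeks. Glucagon receptor blockade is therefore common to both groups, and the diets are the only labelled difference between them. The other 11 libraries come from mice on chow (5 libraries) or HFD (6 libraries) that received REGN496 at the same dose and for the same time. REGN496 was taken as the isotype control antibody by elimination, because the design names a control without its code. The labels do not give the composition of the HFD, the time of day at which livers were taken, or whether each library is a separate mouse, so the p-values rest on the spread among samples, which may be technical.

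Of 24475 genes in the deposited table, 11939 had an RPKM (reads scaled by gene length and library size) of at least 0.5 in at least 5 of the 23 libraries and were tested. At that edge, 113 genes reached 0.5 RPKM in exactly 5 libraries, with means of 0.0968 to 0.718 RPKM over the 12 livers. The 139 genes that reached it in exactly 4 libraries were left out, with means of 0.0442 to 1.02 RPKM. The RPKM of all 10 hepatocyte markers, among them albumin, summed to 51300 to 61500 on chow and to 50600 to 57400 on HFD, and none of them was at 0 in all 12 livers, so the liver label holds. Relative depth, read from the lowest values, ranged from 0.937 to 1.13 over the 12 libraries. This range is rough, because only 73.4% of the low values checked lay within 0.05 of a whole multiple of the lowest step. HFD libraries 19 and 20 had the lowest mean correlation with their own group (0.9800 and 0.9789), and where leaving both out ended a call, or moved a called change or a count by more than 1.5 times, the value without them stands beside the result. Library 19 also had the highest summed RPKM of the 13 mitochondrially encoded transcripts, at 163000 against 93800 to 118000 in the other HFD livers and 89600 to 116000 on chow. Library 20 had the highest median of the immediate early and heat shock genes, at 0.65 on the log2 scale against -0.35 to 0.14 in the other HFD livers and -0.34 to 0.29 on chow. Both lists were kept as a rough check of RNA quality, which they do not measure, and their part in the results below was not tested. Transcripts of the antibody's target, Gcgr, ranged from 107 to 123 RPKM on chow (median 110) and from 115 to 122 on HFD (median 116), a log2 fold change of 0.07 ± 0.05 (SE) that did not pass the test (adjusted p = 0.297).

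Glucagon acts on hepatocytes through GCGR and cAMP to raise glucose output and the breakdown of amino acids. A liver on a fat-rich diet takes up and stores more fatty acid, and its transcription factors SREBP1c, LXR and PPARA set the balance of fat synthesis and fat oxidation. Male mouse liver also carries a set of genes that depend on pulses of growth hormone through STAT5, while genes with the opposite bias are high in female liver.

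Under GCGR antibody, 1579 genes were higher on HFD than on chow (13.2% of those tested) and 1983 were lower (16.6%), at an adjusted p under 0.05 from limma's moderated test on log2(RPKM + 1). Of these, 112 were higher and 118 lower by at least 2-fold, and the median over all tested genes was -0.02 on the log2 scale. Without libraries 19 and 20 the counts were 1267 and 1849. Libraries of the diets did not overlap in 615 genes that were higher on HFD (5.15%) and in 609 that were lower (5.1%). Counts of calls in the gene lists below are to be read beside the shares of all genes, 13.2% higher and 16.6% lower. Fold changes below are log2 values ± SE, and adjusted p values are limma's over all 11939 genes. RPKM are given as the lowest, median and highest of 6 libraries on each diet.

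**Figure D1:**
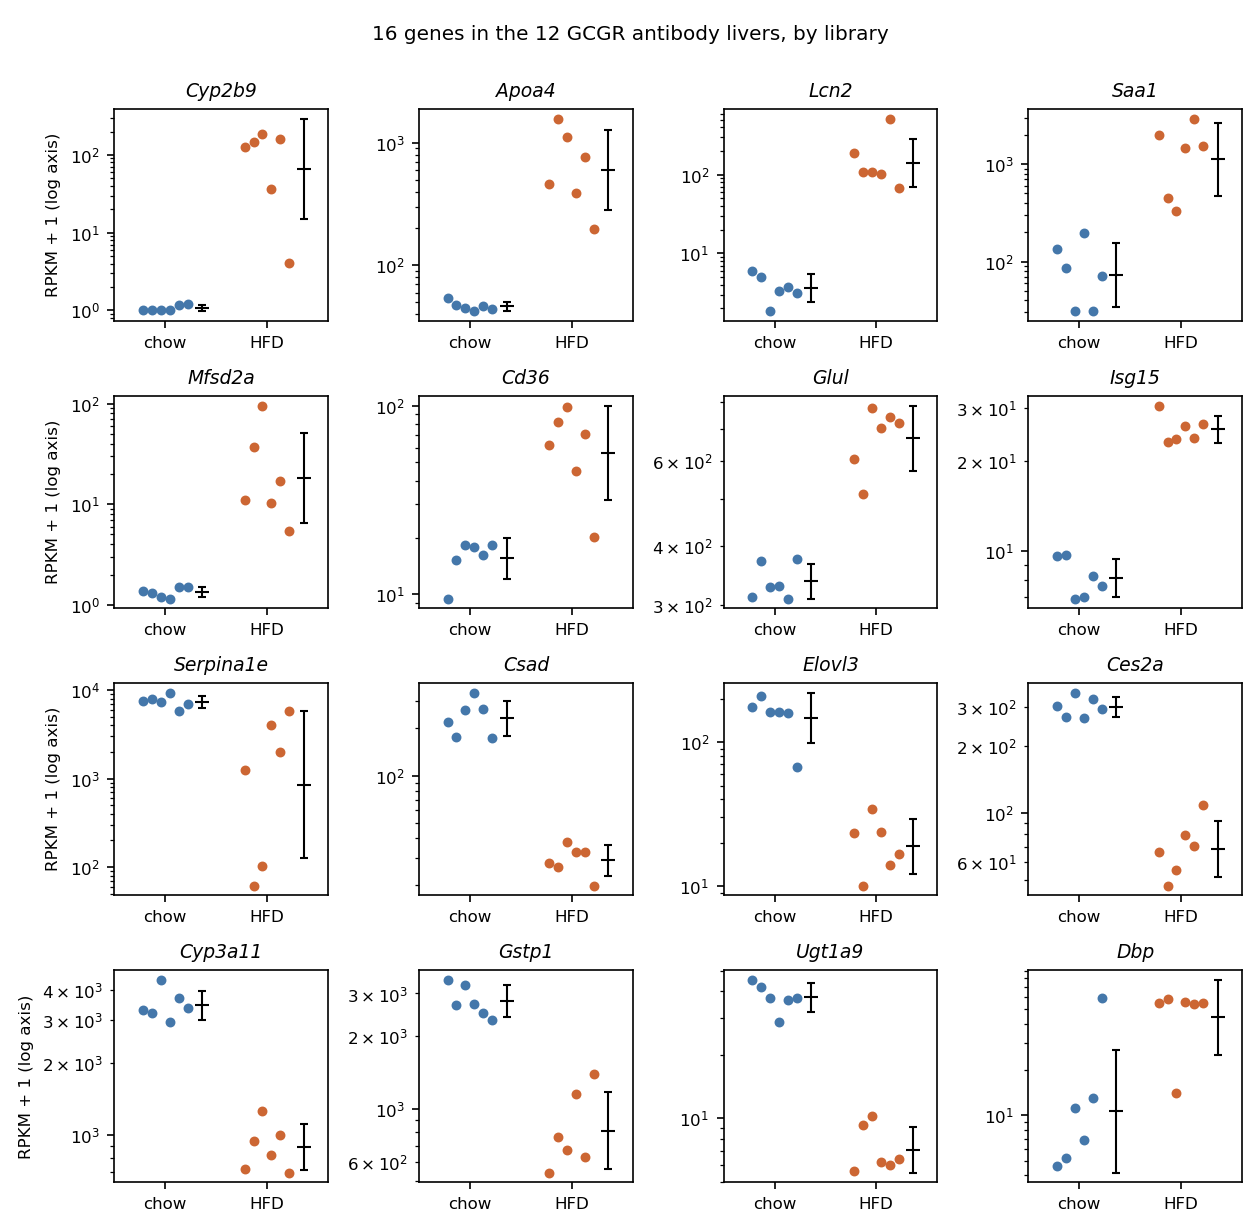
RPKM + 1 (vertical, log axis) of 16 genes in the 6 chow (blue) and 6 HFD (orange) livers under GCGR antibody, in the order of library number; each point is 1 library, and the bar beside each group is the mean ± SD of the log values. Lcn2 lies at or under 4.89 RPKM in every chow liver and at or above 66.8 in every HFD liver, whereas the HFD points of Serpina1e spread from 60.4 to 5740.

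Male-biased liver genes fell on HFD. Of 19 tested members of that list, 15 were called lower and 0 higher, with a median of -1.79, beside 16.6% lower and a median of -0.02 over all genes. Serpina1e (gene ID 20704, chromosome 12, 103946931 to 103956897 of GRCm38), which encodes a male-biased alpha-1-antitrypsin, ranged from 5760 to 9290 RPKM on chow (median 7410) and from 60.4 to 5740 on HFD (median 1630). Its change was -3.12 ± 0.77 (adjusted p = 0.00443), or -1.42 without libraries 19 and 20, and no HFD library reached the lowest chow library. Elovl3, an elongase of very long fatty acids, lay between 66.1 and 207 RPKM on chow (median 161) and between 9.1 and 33.6 on HFD (median 19), at -2.96 ± 0.35 (adjusted p = 2.06e-06). Cyp4a12b, a male-specific fatty acid hydroxylase gene, ranged from 32.2 to 66.7 RPKM on chow and from 0.376 to 27.8 on HFD (-2.76 ± 0.56, adjusted p = 0.000819, and -1.79 without libraries 19 and 20). Cyp7b1, an oxysterol hydroxylase, had chow and HFD medians of 209 and 61.7 RPKM (-1.69 ± 0.30, adjusted p = 0.000238), and Gstp1, a glutathione transferase, had medians of 2700 and 717 (-1.79 ± 0.19, adjusted p = 8.72e-07). Neither of these genes overlapped between the diets. Mup16, of the major urinary proteins, fell by 3.02 (adjusted p = 0.000315), from 270 to 536 RPKM on chow to 10.6 to 214 on HFD.

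The HFD livers were not alike in these genes. Hsd3b5, a male-specific steroid dehydrogenase, stood at 131 to 192 RPKM in the chow livers. In HFD libraries 18 to 23 it stood at 59.4, 0.815, 0.5, 117, 4.38 and 138 RPKM, so that library 23 lay within the chow range, library 21 just under it, and libraries 19, 20 and 22 were nearly without the transcript. Its change of -3.35 ± 0.99 passed the test (adjusted p = 0.0136), but without libraries 19 and 20 it was -1.73 and did not pass (limma, adjusted p = 0.133). Serpina1e was likewise lowest in libraries 19 and 20, with 60.4 and 102 RPKM, and highest of the HFD livers in libraries 21 and 23, with 4070 and 5740. Male-biased liver genes, 19 in number, had a median against the chow mean of -1.40, -3.03, -2.30, -0.43, -2.01 and -0.19 on the log2 scale in libraries 18 to 23, and between -0.26 and 0.15 in the chow libraries. Without libraries 19 and 20, 8 of the 19 genes were called lower and 1 higher, with a median of -1.20. Livers of the same diet and antibody thus differed widely in the size of this decrease.

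Genes with a female bias moved the other way in part. Of 10 tested, 7 were called higher and 2 lower, with a median of 0.85. Cyp2b9 (gene ID 13094, chromosome 7, 26173350 to 26210661), a P450 gene of female liver, was listed at 0 in 4 chow livers and at 0.171 and 0.223 RPKM in the others. On HFD it stood at 125, 147, 187, 35.7, 159 and 3.11 RPKM in libraries 18 to 23. This was the largest increase of the 11939 tested genes (5.96 ± 0.61, adjusted p = 4.16e-07), and it was again smallest in libraries 23 and 21, the pair that kept most of the male-biased transcripts. The female-biased members called lower were Cyp3a41a and Cyp3a44, P450 genes of the 3a family, at -1.03 and -1.21.

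**Figure D2:**
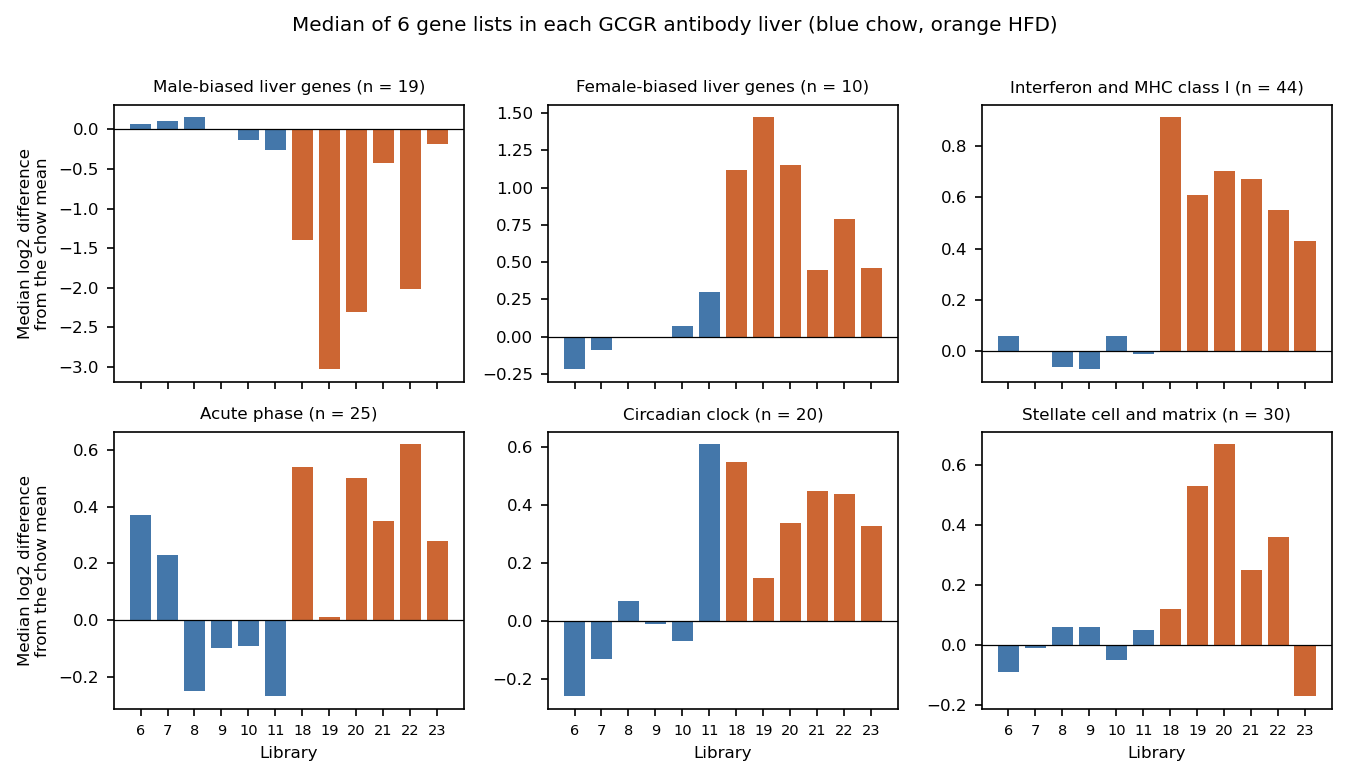
Median over the tested members of 6 gene lists (vertical axis, log2 difference of each gene from its mean over the chow libraries) in each of the 12 GCGR antibody livers (horizontal axis, library number; blue chow, orange HFD). The male-biased median runs from -3.03 in library 19 to -0.19 in library 23, the interferon median stays between 0.43 and 0.91 in all HFD livers, and in the clock list chow library 11 sits at 0.61 with the HFD livers.

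Interferon-stimulated and MHC class I genes rose in nearly every member. Of 44 tested, 39 were called higher and 0 lower, with a median of 0.65, against 13.2% higher over all genes. Without libraries 19 and 20 the count was 38. In 28 of the 44 the libraries of the diets did not overlap. Isg15, a ubiquitin-like protein that interferon induces, ranged from 5.93 to 8.72 RPKM on chow (median 6.95) and from 22.2 to 29.6 on HFD (median 24), at 1.65 ± 0.16 (adjusted p = 1.51e-07). Ifit1, which binds viral RNA, ranged from 1.25 to 2.14 RPKM on chow (median 1.78) and from 4.94 to 9.86 on HFD (median 8.1), at 1.67 ± 0.18 (adjusted p = 5.92e-07). Every HFD liver, libraries 21 and 23 included, lay above every chow liver in both genes. Usp18, the protease that removes ISG15, rose by 1.40 ± 0.14 (adjusted p = 4.23e-07), and the chemokine gene Cxcl10 by 1.35 ± 0.18 (adjusted p = 1.08e-05). Irf7, a transcription factor of the same response, rose by 0.69 ± 0.15 (adjusted p = 0.00128) with overlapping libraries.

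The promoters of these genes were read for the core of the interferon-stimulated response element, GAAA followed after any 2 bases by a second GAAA, on either strand, in the 250 bases before and 50 after each annotated start (RefSeq, GRCm38.p6). This motif was chosen after the values were known. In all, a match was present in 18 of the 35 list genes with a promoter sequence (51.4%) and in 3.44% of all 32851 promoters, or 3.8% of the 9447 tested genes with a promoter. Because the list was drawn up from interferon-stimulated and MHC class I genes, its share of matches says nothing about the diet. Of the 18 genes with a match, 16 were called higher, beside 39 of all 44 list genes (88.6%). Genes with a match were thus called about as often as the whole list. Stat2 (0.15 ± 0.09, adjusted p = 0.230, called at 0.26 without libraries 19 and 20) and Bst2 (-0.07 ± 0.10, adjusted p = 0.612) did not pass. Stretches of 60 bases around these matches are shown for 7 genes of different roles that were called higher, 5′ to 3′ on the gene's strand, with every match in the stretch in capitals. Overlapping matches run together.
Isg15, chr4:156200850-156200909, minus strand: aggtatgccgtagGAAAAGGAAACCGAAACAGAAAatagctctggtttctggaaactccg
Ifit1, chr19:34640779-34640838, plus strand: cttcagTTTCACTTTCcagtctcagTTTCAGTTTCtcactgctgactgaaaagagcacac
Rsad2, chr12:26456538-26456597, minus strand: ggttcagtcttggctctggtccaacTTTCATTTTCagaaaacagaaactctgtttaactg
Cxcl10, chr5:92349068-92349127, minus strand: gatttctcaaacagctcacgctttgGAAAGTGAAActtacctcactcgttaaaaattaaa
Gbp2, chr3:142620579-142620638, plus strand: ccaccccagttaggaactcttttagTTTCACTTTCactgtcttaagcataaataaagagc
Irgm1, chr11:48871421-48871480, minus strand: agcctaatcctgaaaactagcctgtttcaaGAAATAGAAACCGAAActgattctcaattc
B2m, chr2:122147523-122147582, plus strand: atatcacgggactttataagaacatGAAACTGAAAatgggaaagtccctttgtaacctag

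The Isg15 stretch holds 3 overlapping matches and those of Ifit1 and Irgm1 hold 2 each. Rsad2, which encodes the antiviral enzyme viperin, ranged from 1.71 to 3.01 RPKM on chow and from 4.12 to 5.39 on HFD (0.90 ± 0.11, adjusted p = 5.55e-06). Gbp2, a guanylate-binding protein, lay at 0.81 to 1.24 and 1.38 to 7.32 RPKM (1.12 ± 0.18, adjusted p = 0.000117). Irgm1, an interferon-inducible GTPase, had medians of 19.7 and 31.7 RPKM (0.73 ± 0.11, adjusted p = 3.68e-05). B2m, the light chain of MHC class I, is far more abundant, at 1230 to 1450 RPKM on chow and 1490 to 1750 on HFD (0.31 ± 0.06, adjusted p = 0.00091). None of these 4 genes overlapped between the diets.

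Some markers of T and NK cells were higher on HFD. None of the 18 markers on that list was at 0 in all 12 livers. Their RPKM summed to 7.4 to 10.2 on chow and 11.3 to 25.6 on HFD. Ccl5 alone was at 13.2 RPKM in library 19, which had the highest sum. Zap70 alone ranged from 1.57 to 2.95 RPKM on chow and from 3.22 to 6.46 on HFD, highest in library 23. In that library Ccl5, Nkg7 and Il2rb (1.61, 0.404 and 0.39 RPKM) lay within their chow ranges, and Cd3g (0.643) lay above its own. The separate sums therefore do not show a common rise of these markers. Of the 6 markers that could be tested, 3 were called higher (5 without library 23). Fold changes were positive in 5 of these 6, and 2 did not overlap between the diets. Cd4 was at 0.142 to 0.376 RPKM in libraries 18, 19, 20 and 22, below every chow liver. In libraries 21 and 23 it was at 1.18 and 1.08, above every chow liver. In bulk liver, more cells of a type and more RNA per cell cannot be told apart, and the part of these cells in the interferon result was not tested. MHC class II genes, carried by antigen-presenting cells, were called higher in 5 of 6 cases, but in 3 without library 19 and in 1 without libraries 19 and 20. Among them H2-Eb1 ranged from 7.26 to 9.22 RPKM on chow and from 8.5 to 40.5 on HFD, with library 19 highest (0.97 ± 0.25, adjusted p = 0.00589, and 0.59 without libraries 19 and 20). Cd74, the invariant chain, did not pass (0.52 ± 0.21, adjusted p = 0.0706).

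**Figure D3:**
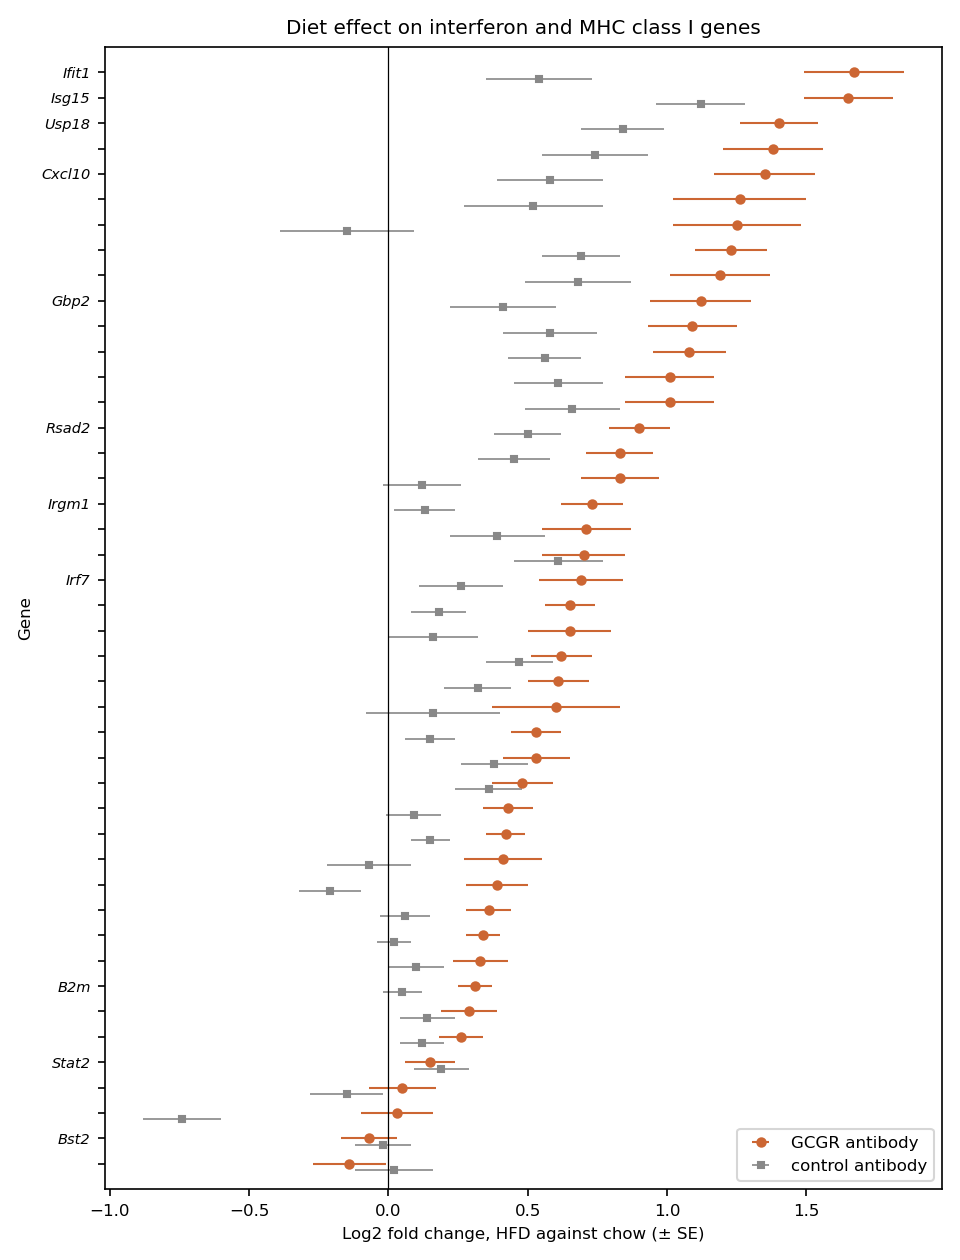
Log2 fold change of HFD against chow (horizontal axis, ± SE) for the 44 tested interferon and MHC class I genes (vertical axis, only the genes named in the text are labelled), under GCGR antibody (orange circles) and under control antibody (grey squares). Under GCGR antibody 39 genes were called higher and the median is 0.65, and under control antibody 18 were called higher and the median is 0.22.

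Acute phase genes of the liver rose in 11 of 25 cases and fell in 3 (0 after quantile normalization), with a median of 0.35. Lcn2, which encodes the iron-siderophore binding protein lipocalin 2, lay between 0.826 and 4.89 RPKM on chow (median 2.54) and between 66.8 and 514 on HFD (median 107). The change of 5.30 ± 0.72 (adjusted p = 1.3e-05) rested on all HFD livers, with library 22 highest. Saa1, a serum amyloid A apolipoprotein, stood at 29.7 to 194 RPKM on chow (median 77.7) and at 327 to 2920 on HFD (median 1510), at 3.93 ± 0.72 (adjusted p = 0.00034). Its near-identical neighbour Saa2 changed by 4.63 ± 0.83 (adjusted p = 0.000279). Libraries 19 and 20, which were extreme in the male-biased genes, had the lowest Saa1 values of the HFD livers, at 449 and 327 RPKM. Orm3, an orosomucoid, ranged from 2.99 to 14.1 RPKM on chow and from 15.1 to 67.2 on HFD (1.99 ± 0.49, adjusted p = 0.00394). The protease inhibitor gene Serpina3n had medians of 139 and 398 RPKM (1.55 ± 0.23, adjusted p = 3.06e-05). Saa3, the serum amyloid A form made chiefly by macrophages and adipose tissue, rose by 1.22 ± 0.26 (adjusted p = 0.00147).

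Fatty acid uptake genes gave 6 calls higher and 2 lower of 20 (1 lower without library 7 or 23, and 3 without library 20), and apolipoprotein and sterol export genes gave 9 and 2 of 22 (1 lower without library 6 or 20 or without libraries 19 and 20). Cd36, the scavenger receptor that brings fatty acids into cells, ranged from 8.5 to 17.3 RPKM on chow (median 16) and from 19.1 to 97.7 on HFD (median 65.2), at 1.86 ± 0.27 (adjusted p = 3.36e-05). Its HFD values were lowest in library 23 and highest in library 20. Apoa4 (gene ID 11808, chromosome 9, 46240844 to 46243458), an apolipoprotein of triglyceride-rich particles, stood at 41.1 to 53.3 RPKM on chow (median 45). On HFD it reached 457, 1570, 1110, 389, 758 and 196 RPKM in libraries 18 to 23 (3.69 ± 0.48, adjusted p = 9.05e-06). Mfsd2a, a transporter of lysophospholipids, ranged from 0.154 to 0.517 RPKM on chow and from 4.4 to 93.8 on HFD, highest in library 20 (3.77 ± 0.46, adjusted p = 3.52e-06). In both genes library 23 was the lowest of the HFD livers and still lay above every chow liver. Fabp2, the intestinal form of fatty acid binding protein, had medians of 39.1 and 118 RPKM (1.72 ± 0.22, adjusted p = 5.86e-06). Fabp5, the epidermal form, moved the other way, from 21.9 to 83.9 RPKM on chow to 5.43 to 12.7 on HFD (-2.45 ± 0.32, adjusted p = 7.43e-06). Fabp1, the abundant liver form, did not pass (0.18 ± 0.12, adjusted p = 0.297).

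Of 34 fatty acid oxidation genes, 20 were called higher and 1, the carnitine transferase gene Crot, lower, with a median of 0.26, and the counts were 19 and 2 without libraries 19 and 20 and 20 and 2 without library 20. Ppara, the nuclear receptor that drives this programme, ranged from 26.8 to 54.9 RPKM on chow (median 40.6) and from 62.3 to 79.2 on HFD (median 66.6), without overlap (0.77 ± 0.13, adjusted p = 0.000125). Cpt1a, which admits long-chain fatty acids to mitochondria, had medians of 65.6 and 99.9 RPKM (0.67 ± 0.11, adjusted p = 0.000173). Hadh, a dehydrogenase of the mitochondrial cycle, had medians of 134 and 241 RPKM (0.81 ± 0.07, adjusted p = 6.24e-08). Of 23 genes known as PPARA targets, 11 rose and 1 fell (2 fell without library 11 and 3 without library 20), with a median of 0.48. Without libraries 19 and 20, 8 rose and 2 fell, and the median was 0.27. The member that fell was Cyp4a12a, which also stands in the male-biased list. Cyp4a10 rose by 1.11 ± 0.28 (adjusted p = 0.00489), whereas Cyp4a14 ranged from 31 to 110 RPKM on chow and from 37 to 354 on HFD without passing the test (1.40 ± 0.58, adjusted p = 0.0706). Pdk4 and Fgf21, also PPARA targets, did not pass either, at -0.84 ± 0.38 (adjusted p = 0.0942) and 0.59 ± 0.34 (adjusted p = 0.191). The repeat bound by PPAR and RXR was read as AGGTCA followed after any 1 base by a second AGGTCA, on either strand. It was found in 0 of the 15 PPARA list genes with a promoter sequence and in 0.0423% of all tested genes with one. These letters were thus not in the windows read for the list.

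Ketone body genes gave 4 calls higher and 2 lower of 9, and 1 lower without any 1 of libraries 6, 8, 9, 10, 21, 22 or 23. Bdh1, which makes beta-hydroxybutyrate, had medians of 50.3 and 82.7 RPKM (0.74 ± 0.10, adjusted p = 9.52e-06). Slc16a7, a monocarboxylate transporter, had medians of 11.5 and 25.7 RPKM (1.05 ± 0.16, adjusted p = 4.09e-05). Both genes were free of overlap.

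Fat synthesis genes rose in 11 of 21 cases and fell in 3, with a median of 0.38. Without libraries 19 and 20 the counts were 7 and 4, and 1 gene fell without any 1 of libraries 10, 11, 18, 22 or 23. Srebf1, which encodes SREBP1, ranged from 29.2 to 47.6 RPKM on chow (median 39.6) and from 56.8 to 93.7 on HFD (median 81.3), at 1.02 ± 0.13 (adjusted p = 9.37e-06). Thrsp, a lipogenic regulator, stood at 71.2 to 173 RPKM on chow and 187 to 508 on HFD (1.71 ± 0.37, adjusted p = 0.00155). Fasn, fatty acid synthase, had medians of 51.6 and 83.2 RPKM with overlapping libraries (0.69 ± 0.18, adjusted p = 0.00671). Mlxipl, which encodes the carbohydrate-responsive factor ChREBP, went the other way, with medians of 114 and 80.5 RPKM (-0.54 ± 0.11, adjusted p = 0.00066). Fads2, a desaturase of polyunsaturated fatty acids, ranged from 85.8 to 128 RPKM on chow and from 159 to 258 on HFD (0.96 ± 0.13, adjusted p = 1.15e-05). Scd1, the main stearoyl-CoA desaturase of liver, did not pass (-0.19 ± 0.28, adjusted p = 0.626).

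Of 28 genes of the lipid droplet and triglyceride storage, 8 were called higher and 1 lower, or 4 and 2 without libraries 19 and 20. Dgat2, which makes triglyceride, ranged from 135 to 185 RPKM on chow (median 137) and from 198 to 263 on HFD (median 247), at 0.71 ± 0.09 (adjusted p = 1.00e-05). Cideb, which lipidates very-low-density lipoprotein, rose by 0.54 ± 0.07 (adjusted p = 4.05e-06). The droplet coat gene Plin2, however, ranged from 151 to 249 RPKM on chow and from 159 to 292 on HFD (0.05 ± 0.16, adjusted p = 0.848). Cidea, Cidec and G0s2, genes that go with large droplets, were at 0.48 ± 0.60, 0.37 ± 0.67 and 0.45 ± 0.45 (adjusted p = 0.577, 0.702 and 0.479). Plin2 was at -0.17 and Cidec at -0.64 without libraries 19 and 20. Under control antibody the diet effect on Plin2, Cidea, Cidec and G0s2 was 0.72, 2.92, 2.29 and 1.94, and each passed there. The test of the difference between the antibodies did not pass for any of these 4 genes (adjusted p = 0.313, 0.329, 0.527 and 0.456), so their diet effects were not shown to differ.

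Cholesterol synthesis and uptake genes gave 3 calls higher and 0 lower of 25 (12% beside 13.2% of all genes). The count was 8 without library 20 and 11 without libraries 19 and 20, and the median of the list in library 20 was -0.42 against -0.18 to 0.24 on chow. Hmgcs1 did not pass (0.44 ± 0.22, adjusted p = 0.134). It was the 1 gene of the 17 in this list with a promoter sequence that held the sterol regulatory element TCACNCCAC. That is 5.88% of them, against 1.51% of all tested genes with a promoter. Among bile acid genes, 4 of 28 rose (14.3%) and 5 fell (17.9%), near the 13.2% and 16.6% of all genes. Without any 1 of libraries 8, 9, 11, 19 or 22, 3 fell. Abcb11, the bile salt export pump, ranged from 162 to 188 RPKM on chow and from 84.6 to 126 on HFD (-0.69 ± 0.12, adjusted p = 0.000143). Cyp7a1, which opens the classic route of bile acid synthesis, ranged from 8.43 to 73.1 RPKM on chow and from 26.6 to 57.8 on HFD, and its change missed the threshold (0.96 ± 0.44, adjusted p = 0.102). Abcg5, a subunit of the sterol exporter, rose by 0.56 ± 0.12 (adjusted p = 0.00183).

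**Figure D4:**
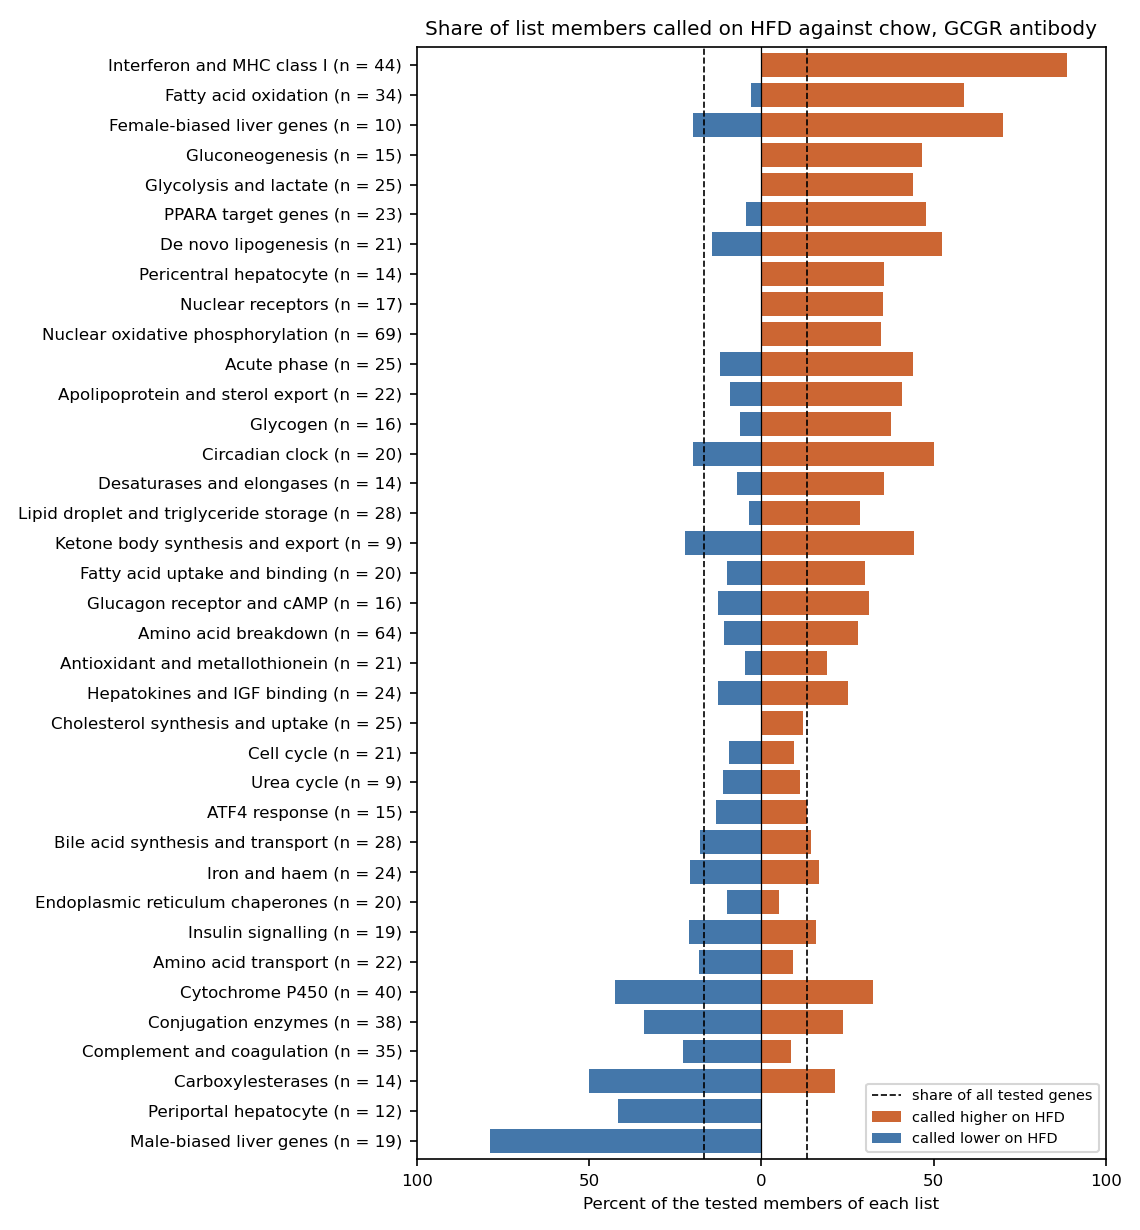
Percent of the tested members of each metabolic and liver function list with at least 9 tested genes (vertical axis, number tested in brackets) that were called higher (orange, to the right) or lower (blue, to the left) on HFD than on chow under GCGR antibody; dashed lines mark the shares over all tested genes, 13.2% higher and 16.6% lower. The interferon list extends farthest to the higher side and the male-biased list farthest to the lower side.

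Glycolytic genes moved in 1 direction where they were called. Of 25 glycolysis genes, 11 were called higher and 0 lower (8 and 0 without libraries 19 and 20), with a median of 0.34. Khk, which phosphorylates fructose, had medians of 196 and 325 RPKM (0.78 ± 0.10, adjusted p = 5.69e-06). Pfkfb1, the bifunctional enzyme that sets the direction of glycolysis, had medians of 12 and 20.4 RPKM (0.72 ± 0.08, adjusted p = 2.37e-06). The diets overlapped in neither gene.

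Gluconeogenic genes gave 7 calls higher and 0 lower of 15, and those did not include Pck1 or G6pc, the enzymes read most often as its markers. Without library 20, or libraries 19 and 20, 1 gene of the list was lower. Pck1 ranged from 124 to 677 RPKM on chow and from 160 to 686 on HFD (-0.27 ± 0.35, adjusted p = 0.583). G6pc ranged from 55.8 to 175 and from 35.8 to 199 RPKM (-0.09 ± 0.32, adjusted p = 0.858). Fbp1, fructose bisphosphatase, had medians of 333 and 461 RPKM (0.47 ± 0.09, adjusted p = 0.000459), and Pcx, pyruvate carboxylase, had medians of 104 and 164 (0.62 ± 0.09, adjusted p = 3.32e-05). Foxo1, the transcription factor that insulin holds out of the nucleus, ranged from 5.92 to 6.92 RPKM on chow and from 7.6 to 13.2 on HFD (0.51 ± 0.10, adjusted p = 0.000566). Of 16 glycogen genes 6 rose and 1 fell, while 3 fell without library 20 and 2 without library 6 or without libraries 19 and 20. Those that rose include Ugp2, which makes UDP-glucose (0.64 ± 0.10, adjusted p = 4.74e-05), and Pgm2 (0.38 ± 0.06, adjusted p = 7.10e-05). Nuclear genes of oxidative phosphorylation gave 24 calls higher and 0 lower of 69, but 12 without library 9, 13 and 1 lower without library 19, 18 and 1 without libraries 19 and 20, and 9 higher and 3 lower after quantile normalization.

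Genes of amino acid breakdown, which glucagon receptor signalling promotes, were called higher more often than lower. Of 64 genes, 18 were called higher (28.1% beside 13.2% of all genes) and 7 lower (10.9% beside 16.6%), with a median of 0.06. The largest decrease was in Csad (gene ID 246277, chromosome 15, 102176997 to 102205052), which makes hypotaurine from cysteine sulfinate. Csad ranged from 174 to 336 RPKM on chow (median 240) and from 18.9 to 36.6 on HFD (median 29.1), at -3.01 ± 0.23 (adjusted p = 6.68e-09). Hal, which starts histidine breakdown, had medians of 126 and 70.1 RPKM (-0.92 ± 0.14, adjusted p = 6.06e-05), and the liver glutaminase Gls2 had medians of 59.3 and 33.6 (-0.67 ± 0.12, adjusted p = 0.000287). In these 3 genes every HFD liver lay below every chow liver.

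Single genes of methionine metabolism changed in both directions. Mat1a, which makes S-adenosylmethionine, ranged from 333 to 473 RPKM on chow (median 418) and from 732 to 924 on HFD (median 795), at 1.02 ± 0.10 (adjusted p = 1.50e-07). Bhmt, which remethylates homocysteine from betaine, ranged from 784 to 2050 and from 2240 to 3240 RPKM (0.92 ± 0.18, adjusted p = 0.000654). Cbs, which draws homocysteine off into cysteine synthesis, fell from a median of 138 to 95.7 RPKM (-0.54 ± 0.08, adjusted p = 5.98e-05). Glul, glutamine synthetase, had medians of 328 and 713 RPKM (0.99 ± 0.09, adjusted p = 1.52e-07). Of the transaminases, Got2 (0.37 ± 0.05, adjusted p = 1.68e-05) and Gpt (0.46 ± 0.10, adjusted p = 0.00196) rose. Got1 ranged from 11 to 19.3 RPKM on chow and from 16.6 to 25.5 on HFD without passing the test (0.26 ± 0.16, adjusted p = 0.227). Oat and the urea cycle gene Ass1 did not pass (0.39 ± 0.18, adjusted p = 0.107, and -0.26 ± 0.14, adjusted p = 0.166), and of 9 urea cycle genes 1 rose and 1 fell (0 fell without library 11 or 19 or without libraries 19 and 20).

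Of 40 P450 genes, 17 were called lower and 13 higher, with a median of -0.27. The counts were 14 lower and 9 higher, and the median -0.08, without libraries 19 and 20. Of 38 conjugation genes 13 were lower and 9 higher. Cyp3a11 (gene ID 13112, chromosome 5, 145854607 to 145879854), the main drug-metabolising P450 of the 3a family in mouse liver, ranged from 2960 to 4410 RPKM on chow (median 3340). On HFD it ranged from 694 to 1250 RPKM (median 883), at -1.97 ± 0.14 (adjusted p = 2.92e-09). Cyp2c29 had medians of 997 and 347 RPKM (-1.54 ± 0.16, adjusted p = 3.74e-07). Cyp2c40 ranged from 3.69 to 9.7 RPKM on chow and from 0 to 1.09 on HFD, where 3 livers were listed at 0 (-2.60 ± 0.25, adjusted p = 2.05e-07). Cyp26a1, which degrades retinoic acid, ranged from 9.5 to 57.8 RPKM on chow and from 0.862 to 2.94 on HFD (-2.47 ± 0.44, adjusted p = 0.000263). Unlike these, Cyp2e1, the ethanol-inducible P450, rose from a median of 3330 to 5820 RPKM (0.68 ± 0.11, adjusted p = 0.000121).

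Among conjugating enzymes, the glucuronosyltransferase gene Ugt1a9 ranged from 27.6 to 44.3 RPKM on chow and from 4.63 to 9.23 on HFD (-2.40 ± 0.24, adjusted p = 3.38e-07). Ugt2b38 had medians of 12.6 and 1.93 RPKM (-2.08 ± 0.16, adjusted p = 8.30e-09), and Gsta2 had medians of 38.6 and 8.62 (-1.78 ± 0.33, adjusted p = 0.000428). Carboxylesterase genes fell in 7 of 14 cases and rose in 3. Ces2a, the strongest of them, ranged from 266 to 347 RPKM on chow (median 298) and from 45.9 to 107 on HFD (median 67.8), at -2.13 ± 0.16 (adjusted p = 5.58e-09). Its relative Ces2g rose by 0.74 ± 0.09 (adjusted p = 5.16e-06), so members of 1 family moved in opposite directions. Among the genes without overlap, the pseudogene Serpina4-ps1 had the largest decrease of those named, from 58.4 to 427 RPKM on chow to 2.78 to 29.8 on HFD (-3.30 ± 0.61, adjusted p = 0.000386).

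Genes with a place along the liver lobule were called in part. Of 12 genes of periportal hepatocytes, those at the inflow, 5 were called lower, 0 higher and 7 not at all, with a median of -0.31 (7 lower and -0.51 without library 20). They include Hal and Gls2 (above), Cyp2f2 with medians of 893 and 409 RPKM (-1.07 ± 0.11, adjusted p = 4.21e-07), and Cdh1, E-cadherin, which ranged from 10.4 to 18.5 RPKM on chow and from 1.56 to 7.31 on HFD (-1.79 ± 0.26, adjusted p = 3.41e-05). Of 14 genes of pericentral hepatocytes, at the outflow, 5 were called higher, 0 lower and 9 not at all, with a median of 0.28. Fold changes were positive in 8 of these 14, and 3 were called lower without library 6 and 1 without library 23. Those called higher include Glul and Cyp2e1 (above) and Lect2, a secreted hepatokine, which ranged from 48.7 to 72.2 RPKM on chow and from 139 to 182 on HFD (1.42 ± 0.10, adjusted p = 2.92e-09). Axin2, a direct target of the Wnt signal that sets the pericentral zone, did not pass (-0.34 ± 0.17, adjusted p = 0.131), nor did the pericentral gene Cyp1a2 (-0.51 ± 0.25, adjusted p = 0.123). Several members of both lists also stand in the amino acid and P450 lists.

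Stress and cell cycle lists gave few calls. Endoplasmic reticulum chaperones gave 1 call higher and 2 lower of 20 (5% and 10%, beside 13.2% and 16.6% of all genes). Genes of the ATF4 stress response gave 2 and 2 of 15 (13.3% each), and cell cycle genes 2 and 2 of 21 (9.52% each). In these small counts single libraries matter: the higher count of the chaperones was 0 without library 9, 10 or 20, and that of the cell cycle genes was 3 without library 23. The higher counts were 0 for the chaperones and 1 each for the ATF4 and cell cycle genes without libraries 19 and 20. Insulin signalling genes gave 3 higher (15.8%) and 4 lower (21.1%) of 19, shares not below those of all genes (2 lower without library 8, 11, 19 or 23). Glucagon receptor and cAMP genes gave 5 higher, or 31.2% beside 13.2% of all genes, and 2 lower of 16 (4 lower without library 20), with a median of 0.04. Complement and coagulation genes gave 3 (8.57%) and 8 (22.9%) of 35, but 8 and 6 without library 19 and 8 and 5 without libraries 19 and 20.

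Clock genes changed in 14 of 20 cases, 10 higher and 4 lower, with a median of 0.39, and in several of them 1 chow library lay near the HFD livers. Dbp, an output gene of the clock, was at 3.64 to 11.9 RPKM in chow libraries 6 to 10 but at 58.5 in chow library 11. In the HFD livers it was at 53.1 to 57.8 RPKM except in library 20, with 12.9. The repressor Ciart was at 0.0473 to 0.476 RPKM in libraries 6 to 10, at 4.82 in library 11 and at 4.2 to 10.3 on HFD. Arntl, which encodes BMAL1, was at 4.63 to 6.17 RPKM in libraries 6 to 10, at 1.25 in library 11 and at 0.587 to 2.54 on HFD. In all 3 genes library 11 lay apart from the other chow livers and at or near the HFD values. With library 11 the changes were 2.06 ± 0.58 for Dbp, 2.02 ± 0.38 for Ciart and -1.37 ± 0.30 for Arntl (adjusted p = 0.0110, 0.00046 and 0.00194), and without it 2.56, 2.38 and -1.61. Nr1d1, a clock repressor, had medians of 47.6 and 17.8 RPKM (-1.01 ± 0.19, adjusted p = 0.00034), and in this gene library 11 was the highest of the chow livers, at 55.1 RPKM. The calls in Nr1d1 and Dbp were lost under the exact rank-sum test (adjusted p = 0.0914 and 0.166).

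Some clock genes separated the diets with library 11 included. Clock ranged from 6.14 to 9.26 RPKM on chow and from 3.04 to 5.15 on HFD (-0.88 ± 0.12, adjusted p = 1.56e-05). Per1 ranged from 0.728 to 3.45 RPKM on chow, highest in library 11, and from 3.58 to 14 on HFD, highest in library 20 (1.52 ± 0.27, adjusted p = 0.000219). Over all genes, 1479 were higher and 1821 lower without library 11. Leaving out library 11 keeps only the chow livers with low Dbp, so these counts do not bear on sampling time. The time at which each liver was taken is not in the labels. A diet effect and a difference in sampling time therefore cannot be told apart, in clock genes or in any gene that varies with time of day. Outside the clock list, Elovl3 was at 66.1 RPKM in library 11 against 158 to 207 in the other chow livers.

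Iron and haem genes gave 4 calls higher (16.7%) and 5 lower (20.8%) of 24, near the 13.2% and 16.6% of all genes. The lower count was 2 or 3 without library 9, 10, 11, 20 or 22 or without libraries 19 and 20. Hamp2, a copy of the hepcidin gene, ranged from 1.28 to 5.16 RPKM on chow and from 16 to 167 on HFD (3.77 ± 0.55, adjusted p = 3.41e-05). Hamp, which encodes hepcidin itself, ranged from 182 to 964 and from 144 to 908 RPKM and did not pass (-0.30 ± 0.72, adjusted p = 0.787). Reads shared between such close copies may not be told apart, so both values are uncertain. Alas1, the first enzyme of haem synthesis, had medians of 73.3 and 256 RPKM with 1 chow liver, library 9, among the HFD values (1.64 ± 0.37, adjusted p = 0.00196), and Cpox, further along the pathway, rose by 0.56 ± 0.07 (adjusted p = 3.97e-06).

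Some secreted factors of the liver changed and others did not pass. Igfbp2, an IGF binding protein, ranged from 153 to 360 RPKM on chow (median 315) and from 78.8 to 147 on HFD (median 109), at -1.38 ± 0.28 (adjusted p = 0.000744). Igf1, the main growth hormone target among hormones of the liver, did not pass (-0.12 ± 0.08, adjusted p = 0.241). Igfbp1 did not pass either (0.92 ± 0.71, adjusted p = 0.350), with 306 RPKM in library 20 against 9.49 to 47.7 in the other HFD livers. Among the other large increases, whatever the kind of gene, Gpc1, a glypican, rose from 1.41 to 3.65 RPKM on chow to 7.33 to 17.9 on HFD (1.93 ± 0.19, adjusted p = 2.00e-07). Tceal8 (1.84 ± 0.34, adjusted p = 0.000356) and the interferon-inducible gene Ifi27l2b (2.20 ± 0.31, adjusted p = 2.47e-05) completed the 12 largest increases without overlap, with predicted genes passed over.

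Markers of stellate cells and matrix were highest in libraries 19 and 20. Of 30 genes of stellate cells and matrix, 14 were called higher and 1 lower, but 4 and 1 without those libraries. Their summed RPKM was 169 to 185 on chow and 161 to 343 on HFD, with libraries 19 and 20 highest and the median of the list lower in library 23 than in any chow library (-0.17 against -0.09 to 0.06). Col1a1, the main fibrillar collagen, was at 0.985 to 2.63 RPKM on chow and at 3.13, 8.09, 12.2, 4.62, 4.02 and 1.32 in HFD libraries 18 to 23 (1.11 ± 0.32, adjusted p = 0.0123, lost without libraries 19 and 20). Timp1, an inhibitor of matrix proteases, stayed at or below 0.152 RPKM on chow and reached 0.222 to 1.76 on HFD (0.80 ± 0.16, adjusted p = 0.000737, and 0.53 without libraries 19 and 20). Trem2, a receptor of lipid-associated macrophages, rose by 0.92 ± 0.20 (adjusted p = 0.00174), with 1.76 and 2.36 RPKM in libraries 19 and 20 and 0.362 in library 23. Of 25 macrophage markers 7 were higher and 5 lower, or 2 and 1 without libraries 19 and 20 and 7 and 3 without library 10 or 19, and their summed RPKM overlapped (210 to 290 on chow, 154 to 263 on HFD). The macrophage median was highest in library 20 (0.16) and lowest in library 23 (-0.37), with library 19 at 0.05. Of 20 endothelial markers 1 was called higher and 4 lower (0 lower under the exact rank-sum test), and their median was lowest in library 19 (-0.34) and highest in library 20 (0.18), against -0.30 to 0.15 on chow. Libraries 19 and 20 also had the lowest medians of the male-biased genes, and the part of these cell types in those values was not tested.

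The same diet comparison under control antibody uses none of these 12 libraries. There 1390 genes were higher (11.6%) and 2183 lower (18.3%), together 29.9% of those tested, beside 29.8% under GCGR antibody. Of the genes called higher under GCGR antibody, 792 were also called higher under control antibody, which is 50.2% of the former and 57% of the latter. Of those called lower, 1221 were shared, or 61.6% and 55.9%. Over the 11939 genes the fold changes of the diet under the antibodies had a Pearson correlation of 0.804, given as a description because genes are not replicates. Male-biased genes were called lower in 15 of 19 cases there too (median -2.02). The interferon list, in contrast, had 18 of 44 called higher and 1 lower under control antibody (median 0.22), but 0 of the 44 passed the test of the difference, with Ifit1 at an adjusted p of 0.0766.

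**Figure D5:**
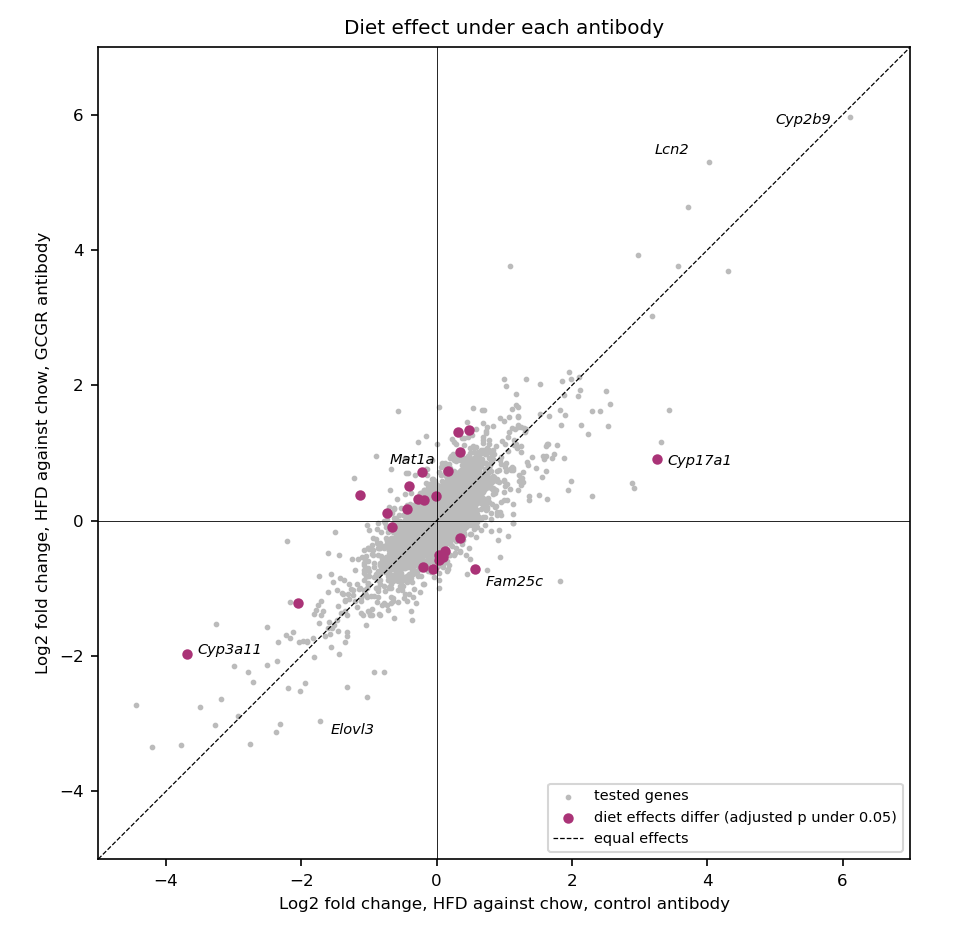
Log2 fold change of HFD against chow under control antibody (horizontal axis) and under GCGR antibody (vertical axis) for 11939 genes; purple points are the 24 genes whose diet effects differed between the antibodies at an adjusted p under 0.05, and the dashed line marks equal effects. Cyp3a11 lies above the line with a smaller decrease under GCGR antibody, and Cyp17a1 lies below it with a smaller increase.

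The diet effect itself differed between the antibodies in 24 genes (0.201%), 15 with a more positive (0.126%) and 9 with a more negative effect (0.0754%) under GCGR antibody. Cyp3a11 fell by 1.97 under GCGR antibody and by 3.69 under control antibody, a difference of 1.73 ± 0.20 (adjusted p = 0.00021), with mean levels on HFD of 905 and 282 RPKM. Cyp17a1, a steroid hydroxylase, rose by 0.91 ± 0.25 under GCGR antibody, from 0.144 to 0.591 RPKM on chow to 0.714 to 3.93 on HFD, and by 3.25 under control antibody (difference -2.35 ± 0.36, adjusted p = 0.00540). Its diet call under GCGR antibody was lost without libraries 19 and 20 (adjusted p = 0.0552). Both genes kept the direction of the diet effect and differed in its size. The call on the difference in Cyp17a1 was lost with a pseudocount of 0.1 (adjusted p = 0.0925), and that in Cyp3a11 passed under all 30 alternatives.

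Fam25c fell under GCGR antibody (-0.72 ± 0.14) and rose under control antibody (0.57), a difference of -1.29 ± 0.20 (adjusted p = 0.00540). Gas2 fell by 0.50 under GCGR antibody beside 0.03 under control antibody (difference -0.53 ± 0.10, adjusted p = 0.0278, lost without library 5, 8, 9, 10 or 22). Odf3b did not pass under GCGR antibody (0.12 ± 0.10) and fell by 0.74 under control antibody (difference 0.86 ± 0.14, adjusted p = 0.00990). In Cbs and Mat1a, the genes of methionine metabolism described above, the differences were -0.63 ± 0.12 and 0.67 ± 0.14 (adjusted p = 0.0343 and 0.0439), and they passed in 17 and 8 of 30 alternatives. Called in opposite directions by the diet under the antibodies were 5 genes: 8430419L09Rik, Fam25c, Ces1g (0.52 and -0.41), Enpp5 (0.32 and -0.27) and Pnpla7 (-0.26 and 0.35). The call under GCGR antibody was lost in Enpp5 under the exact rank-sum test, and in Pnpla7 without library 8, 10, 11, 19, 22 or 23 or without libraries 19 and 20. The number of differing genes ranged from 5 (without library 5, 8 or 22) to 65 (without library 19) when single libraries were left out, and was 132 without libraries 19 and 20.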

How the data were processed

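Strand-specific mRNA libraries were run on a HiSeq 2500 in single-read mode with a length of 33 cycles, as the labels' protocols state. The submitters' processing notes name bcl2fastq 2.17, FastQC and GRCm38. For the aligner, the counting tool and the strand setting, the sources used here give no name. In the table that the authors deposited, values are RPKM with 1 column per library, and a count model was therefore not applied. Total depth is unknown, and relative depth came from the steps of 1255 low genes. Near-identical copies (Saa, Mup, Hamp, Orm, Serpina1, Cyp2b, Cyp2c, Cyp3a, Cyp4a, Ugt, Gstp and Ces families) may share reads and are uncertain.

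With limma 3.58.1 in R 4.3.3, 4 group means were fitted to log2(RPKM + 1) of all 23 libraries, with a mean-variance trend, two-sided, with Benjamini-Hochberg adjustment over 11939 genes and a threshold of 0.05. The fit was tested on simulated data. This scale understates the change of low genes. Named genes are the 12 largest increases and the 12 largest decreases without overlap whose group with the higher level had a mean RPKM of 1 or more, members of the gene lists marked as key, the pair with the smallest adjusted p in each metabolic or liver function list, and the genes with the smallest adjusted p for the difference. Predicted genes and microRNA genes were passed over in taking the 12 increases and 12 decreases. Rsad2, Gbp2, Irgm1, B2m, Stat2, Bst2, Ciart, Per1, Timp1, Enpp5, Pnpla7, 8430419L09Rik, Crot, Cd4, Zap70, Cd3g and Il2rb were added after their values were seen. Cyp3a41a and Cyp3a44 are named by the rule but were not among the single genes followed through the alternatives. Members and lists were chosen with earlier results of these data known. Positions and promoters are RefSeq's for GRCm38.p6, where 24375 of 24475 gene IDs were found. Alternatives tried were another pseudocount, other filters, other scalings, library weights, a fit of the 12 libraries only, an exact rank-sum test and leaving out libraries. Summaries and figures used Python 3.11.15, pandas 2.3.3 and matplotlib 3.10.9. Some genes that the rule names are not reported here.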

Additional observations from a re-analysis of the deposited data

Results flagged for a closer look

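In 36 of 256 groups of 6 libraries of the named genes (14.1%), 1 library lay farther from the other 5 than Dixon's test allows. The test was run on RPKM without a log scale, and the groups share libraries. Some of the genes were also added after their values were seen. This share therefore cannot be set against a chance rate. Library 20 on HFD accounted for 11 of them. Its Mt1 was at 320 RPKM, Igfbp1 at 306, Pck1 at 686, Pdk4 at 4.58, Mfsd2a at 93.8, Plin4 at 31.5, Arntl at 2.54, Ciart at 10.3 and Per1 at 14, all above the other HFD livers. Its Dbp, at 12.9 RPKM, and G0s2, at 38.9, lay below them. Metallothionein 1 (Mt1) binds metals and responds to glucocorticoids.

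Chow library 11 accounted for 8. It was high in Dbp (58.5 RPKM), Ciart (4.82), Per1 (3.45), Fabp2 (65.3) and Mt1 (45), and low in Arntl (1.25), Elovl3 (66.1) and Fam25c (35.2). In each of these 8 genes the library departed from the other chow livers in the direction of the HFD livers.

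In HFD library 19, Cideb was high at 286 RPKM and Cyp17a1 at 3.93, whereas Cyp7a1 (26.6), Enpp5 (10.6) and Srebf1 (56.8) were low. Among the other HFD livers, Lcn2 stood out at 514 RPKM in library 22, Lect2 at 182 in library 23 and Pnpla7 at 21.8 in library 21. In chow library 9, Alas1 (200 RPKM) and Serpina4-ps1 (427) were high, and Cideb (147) and Igfbp2 (153) were low. Chow library 10 was high in Cyp26a1 (57.8 RPKM) and Scd1 (1350). Single values stood out in chow library 6 (Cd36, 8.5 RPKM, low), library 7 (Igfbp1, 66.4, high) and library 8 (Cxcl10, 2.39, high).

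For 10 of the 128 named genes followed through the alternatives, the diet effect differed between the antibodies by limma's test of the difference itself. Cyp3a44, which is not among the 128, differed by 0.84 in the same test (adjusted p = 0.0381), at -1.21 under GCGR antibody and -2.05 under control antibody. The values that follow are for the 10 genes. The effect under GCGR antibody was more positive for Cyp3a11 by 1.73, Ces1g by 0.93, Odf3b by 0.86, Mat1a by 0.67 and Enpp5 by 0.58 on the log2 scale. It was more negative for Cyp17a1 (-2.35), Fam25c (-1.29), Cbs (-0.63), Pnpla7 (-0.60) and Gas2 (-0.53).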

How the results depend on the processing

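The counts of genes higher and lower on HFD kept within 1.5 times of their values under every alternative run, except that the exact rank-sum test called 1204 lower. Leaving out 1 library gave 1348 to 1721 higher and 1596 to 2282 lower. Median-ratio scaling gave 1853 higher and 1765 lower, so 51.2% of the calls were higher instead of 44.3%. The count of genes whose diet effect differs between the antibodies moved most: it was 8 with no filter on low values, 15 after quantile normalization, 190 with library quality weights and 132 without libraries 19 and 20, and 5 to 65 when 1 library was left out. The cause was not tested. Of 128 named genes, 99 were called, 91 of them under every alternative run, and none reversed. Hsd3b5, Mup20, Cyp17a1 and Col1a1 lost the call without libraries 19 and 20 (adjusted p = 0.133, 0.0588, 0.0552 and 0.111), and Nr1d1, Dbp, Enpp5 and Col1a1 under the exact rank-sum test (0.0914, 0.166, 0.0651 and 0.124). Pnpla7 lost it without libraries 19 and 20 or any 1 of 6 single libraries (up to 0.0741). Of the 29 not called, 11 gained a call in at least 1. Of the 10 differences called among these 128 genes, Cyp3a11, Fam25c and Odf3b passed under all 30 alternatives, and Ces1g, Pnpla7, Enpp5 and Mat1a under 11, 11, 8 and 8. The exact rank-sum test also lowered counts in lists: P450 genes called higher were 7, fat synthesis genes 6, stellate and matrix genes 4, nuclear oxidative phosphorylation genes 13, lipid droplet genes 5 and MHC class II genes 2, and carboxylesterases called lower were 4. With a pseudocount of 0.1 the median of the female-biased genes was 1.61. No paired analysis was made, because the labels used here hold nothing that links a sample of 1 group to a sample of another. Depth is unknown in reads, so values near 0 RPKM have no counting interval.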
